A study of Arabidopsis thaliana with 8 samples.

Results

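Moderate CONSTANS (CO) peaks in gene flanks are the subject of this section. They were taken from the authors' filtered list of ChIP-seq peaks as the nuclear peaks with a fold enrichment below 15 whose summit lay outside every protein-coding gene but within 1000 bp of the edge of at least 1. In all, 1083 of 3210 nuclear filtered peaks met this rule, which is 33.7% (Wilson 95% interval 32.1 to 35.4, counting error only). Chromatin was immunoprecipitated with an anti-CO antibody from Arabidopsis thaliana seedlings of 2 genotypes, 35S:CO, which overexpresses CO, and the co mutant co-10, the control for antibody signal without functional CO. Each genotype had 2 immunoprecipitates and 2 inputs without antibody. All seedlings grew in long days, were harvested 7 days after germination, and were crosslinked with 1% formaldehyde for 20 min and 1 mM of the protein-protein crosslinker DSG for 10 min. CO is driven by a viral promoter in 35S:CO, so these peaks describe binding at a raised CO level in all tissues of the seedling together. A plant with its own CO promoter was not analysed here.

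CO is a B-box protein with a CCT domain that accumulates in the light at the end of long days and activates the florigen gene FT. It is known to bind DNA together with NF-Y histone-fold subunits, and COP1 and SPA proteins mark it for degradation in the dark. Sequence-specific regulators of plants often bind the open, non-coding DNA beside genes, where promoters and their elements lie, and neighbouring genes can share such a stretch.

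Each genotype has 1 pooled peak list, so no value here has a replicate check and no test between genotypes was possible. Fold enrichment is the authors' ratio of signal over local background at the summit, taken from their list. Members were chosen by fold enrichment and summit position, so these values are given as descriptions, with no test. Fragments over the summit (pileup) and those expected there (background) were recovered from the fold enrichment and the p-value. For each of the 1083 members some whole number of fragments gave back the −log10 p-value to within 0.001. Sequencing depth cannot be read from the lists. Members had a median background of 3.17 fragments, from 1.28 to 10.4, and a median pileup of 22 fragments (interquartile range 17 to 33).

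The control was set against these peaks by the same rule. In 35S:CO before filtering 1090 peaks met it, with a median fold enrichment of 5.69 over the 1083 that stayed. The co-10 list held 27 such peaks among 312 nuclear ones (8.65%), with a median of 3.57 and a range of 2.23 to 6.37. Median pileups were close, at 19 fragments for co-10 and 22 for the members. Median backgrounds were 5.69 and 3.17 fragments. Filtering had removed 7 of the 1090 (0.642%), against 77 of all 3287 nuclear 35S:CO peaks (2.34%). The removed peaks had fold enrichments of 1.75 to 6.04, and 4 of the 7 stood on a background above 10 fragments, a level that 1 member reached. No member's interval overlapped a co-10 peak, and 2 of 1083 had one within 1000 bp. Members were taken from a list already filtered, so this lack of overlap is no separate result about them. The 2 members were a peak beside AT3G62470 at 1 bp from a co-10 peak (fold enrichment 3.53) and a peak beside AT1G56420 at 307 bp (3.64). The lists differ in their lowest value: the weakest member had a −log10 p of 3.56, and the weakest co-10 peak had 4.28. The calling limits of the lists are not given in the sources used here.

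Over all members together, summits were denser than flank bases next to a gene edge. The median distance from a member's summit to the nearest protein-coding gene edge was 263 bp (95% interval of the median over peaks 239 to 302), and the quartiles were 96 and 586 bp. The 100 bp next to an edge held 281 summits, or 25.9% (23.4 to 28.6), against 17.4% of all flank bases, which is 1.49 times their share. Of these 281 summits, 143 had genes within 1000 bp on both sides. Relative to the length of their whole spaces, summits of that kind lay close to an even spread, as given below. From 101 to 300 bp the shares of summits and bases were close, with 14.6% against 14.4% and 12.4% against 12.5%. Between 301 and 500 bp summits were sparser than bases, with 8.31% against 11.0% and 6.93% against 9.68%. In the outermost 100 bp, 4.06% of summits stood against 5.68% of bases. The median over all flank bases was 351 bp. The gene table has no strand, so start and end of a gene could not be told apart, and distances refer to either edge.

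**Figure D1:**
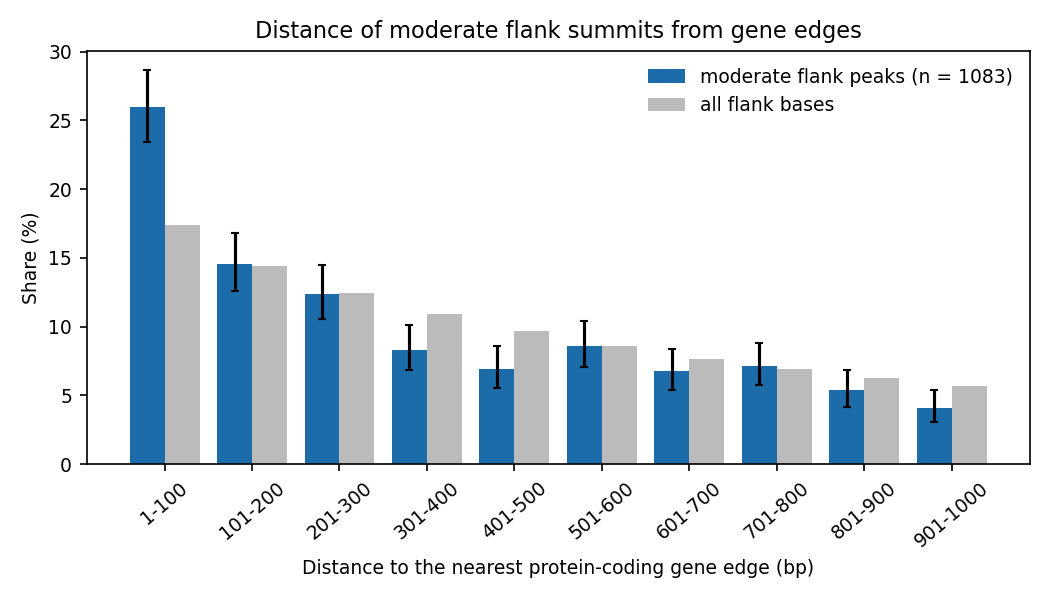
Share of moderate flank summits (blue, left bar, n = 1083 peaks, with Wilson 95% intervals) and of all flank bases (grey, right bar) by distance to the nearest protein-coding gene edge in bins of 100 bp. The first bin holds 25.9% of the summits and 17.4% of the bases, and from 301 to 500 bp the blue bars are the lower ones.

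The intervals themselves often ran into a gene. Although every summit lay outside, 535 of 1083 peak intervals (49.4%) covered at least 1 base of a protein-coding gene. Distance went with neither strength nor width. Across the 1083 peaks, fold enrichment and distance had Spearman's rho of -0.02, and width and distance had 0.01, as descriptions of 1 pooled list. Median fold enrichment per 100 bp bin stayed between 5.31 and 6.03 along the whole flank.

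Members ranged in strength from 2.60 to 14.996, with a median fold enrichment of 5.69 (5.47 to 5.89) and quartiles of 4.37 and 8.06. Below a fold enrichment of 5 were 432 members (39.9%), 497 lay from 5 to 10, and 154 (14.2%) were at 10 or more. The median −log10 q was 10.4, and 556 members (51.3%) had a −log10 q of at least 10. Width ran from 297 to 1978 bp, with a median of 473 bp (462 to 487). Stronger peaks were wider. Peaks below 4 had a median width of 337 bp and those from 10 to 15 a median of 676.5 bp. Spearman's rho between fold enrichment and width was 0.69 over the 1083 peaks, which share 1 library pool and a caller that extends an interval as far as its signal passes the threshold. Only 60 members (5.54%) were wider than 1000 bp.

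**Figure D2:**
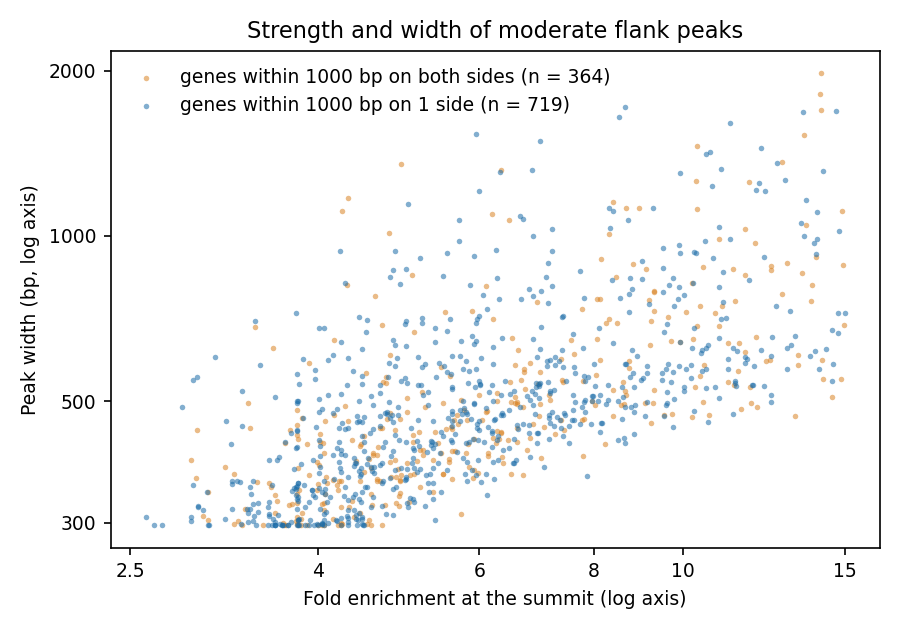
Fold enrichment at the summit (x, log axis) and width in bp (y, log axis) of each moderate flank peak, for 364 peaks with genes within 1000 bp on both sides (orange) and 719 with genes on 1 side (blue). Both sets rise together from about 300 bp at the weak end, with median widths of 462 and 478 bp, and fill the same area.

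Set beside the other moderate peaks, those in flanks were stronger. Their median fold enrichment of 5.69 compares with 4.85 for 1119 moderate peaks inside protein-coding genes and 4.78 for 707 moderate peaks farther than 1000 bp from any. Peaks of at least 10 made up 14.2% of the flank peaks, 9.12% of those inside genes and 9.19% of those far away. Median pileups were 22, 19 and 18 fragments and median backgrounds 3.17, 3.09 and 2.93, and since pileup was derived from fold enrichment it is no separate measure of the difference. Median width was 473 bp in flanks, 440 bp inside genes and 422 bp far from genes. Median distance to a gene edge was 263 bp (239 to 302) for the moderate flank peaks and 291.5 bp (194 to 360) for the 134 flank peaks at a fold enrichment of 15 or more, and these intervals overlap. Peaks are not replicates of the experiment, and no test was made of these differences.

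**Figure D3:**
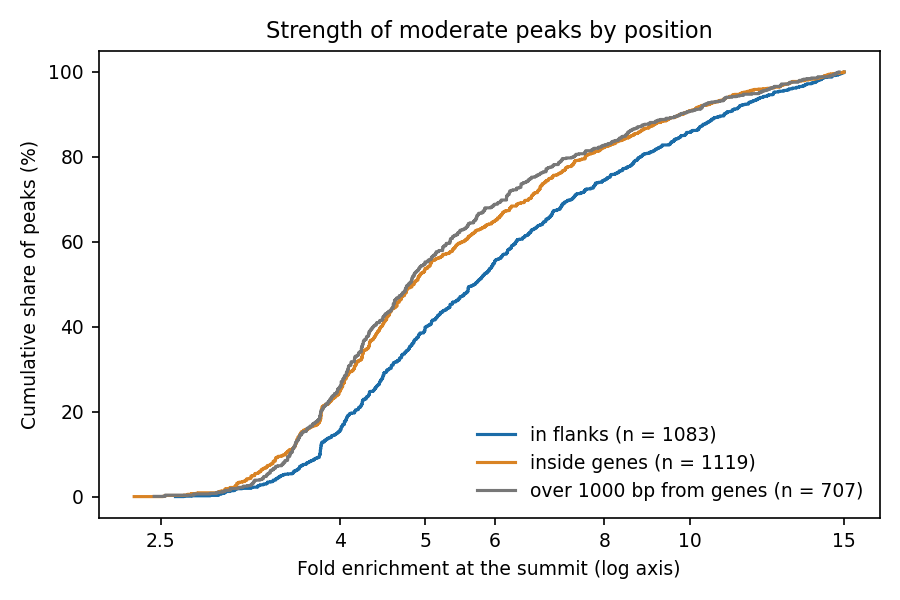
Cumulative share of moderate peaks (y, percent) up to a given fold enrichment (x, log axis) for peaks in flanks (blue, n = 1083), inside genes (orange, n = 1119) and over 1000 bp from genes (grey, n = 707). The blue curve lies to the right: 39.9% of flank peaks are below 5, against 53.8% and 55.3% of the others.

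The limits of the rule cut through a continuous range. Just inside the strength limit were a peak beside AT1G04570 (14.996), a peak at AT1G29430, AT1G29435 and SAUR63, the last a gene of the SMALL AUXIN UPREGULATED RNA family (14.98), and one between AT3G06145 and AT3G06150 (14.92). Just outside it were flank peaks at CAS1, a gene of sterol synthesis (15.007), the clock-related MYB-like gene RVE1 (15.02) and AT1G53875 (15.03). The farthest members lay 999, 984 and 984 bp from AT1G18810, AT5G26010 and AT1G13360. Just beyond the distance limit were moderate peaks 1002 bp from CO itself (fold enrichment 3.36), 1004 bp from AT3G24640 (5.82) and 1004 bp from RBCS2B (5.08), a gene of the Rubisco small subunit.

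The 10 strongest members, those just named included, had fold enrichments of 14.5 to 14.996. A peak between LECRKA4.1 and LECRKA4.2, neighbouring lectin receptor kinase genes, had a fold enrichment of 14.9 from 56 fragments over 2.84 expected, on chromosome 5 from 213375 to 213922. GBSS1, which encodes the granule-bound starch synthase that makes amylose, had a peak of 14.8 on chromosome 1 from 11923496 to 11924517, with its summit 1 bp from the gene edge. RbcX1, named for a cyanobacterial Rubisco assembly factor, had 14.8 at 729 bp. Others of the 10 strongest lay between AT1G53900 and AT1G53890 (14.9), at CYP71B20, a cytochrome P450 gene (14.7), at the kinase gene APK1A (14.7) and at AT5G43140 (14.5). At the weak end were GID1B, a gibberellin receptor gene (2.60 from 12 fragments), AT2G45820 (2.66) and ASG1 (2.71). The 10 strongest peaks had 52 to 74 fragments at the summit, and these 3 weakest had 12 to 14.

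Among the 5 widest members, 4 had a fold enrichment above 14. The widest, 1978 bp on chromosome 2 from 16010566 to 16012543, lay between PDX1.1, a gene of vitamin B6 synthesis, and APD3, and had a fold enrichment of 14.1. Next came a 1810 bp peak between AT1G03590 and PSB27, which encodes a photosystem II assembly factor (14.1). IAGLU, encoding a glucosyltransferase of the auxin indole-3-acetic acid, had a 1720 bp peak at a lower fold enrichment of 8.64. AMT1;2, an ammonium transporter gene, and PnsB2 shared a 1699 bp peak (14.1), and the APK1A peak was 1691 bp wide. At the other end of the distance scale, summits 1 bp from an edge were found at AT4G13180 (3.68) and HB-2 (4.36), a homeodomain gene of the shade response, as well as at GBSS1, so the nearest summits covered both weak and strong peaks.

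Intergenic spaces were shared in 2 ways: by genes and by peaks. A gene lay within 1000 bp on both sides of the summit for 364 members, 33.6% (30.9 to 36.5), against 29.8% of flank bases. Their spaces between protein-coding genes had a median length of 733 bp, from 21 to 1913 bp, and for these peaks the list gives no ground to choose a gene. The other 719 members reached genes on 1 side and lay in spaces with a median of 2863 bp. Fold enrichment had a median of 5.73 with genes on both sides and 5.65 with genes on 1 side, and the intervals of these medians overlapped, at 5.41 to 6.20 and 5.37 to 5.90. With genes on both sides, the summit lay at a median of 25.9% of the space's length from the nearer gene. Summits spread evenly along whole spaces would give a median close to this. With each space cut into equal left, middle and right parts, the middle part held 132 of 364 summits (36.3%), near an even share. In spaces longer than 1000 bp only the central stretch is within reach of both genes, and these values were not adjusted for that.

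By peaks, the 1083 members fell into 1034 of 23810 spaces between protein-coding genes (4.34%). A single member was found in 987 spaces, 45 held 2 and 2 held 3. The space around a member had a median length of 1962 bp, against 2157 bp when every flank base is counted with its space. Counted once each, all spaces had a median of 877 bp. Of the 1034 spaces, 882 held no other filtered summit, 28 also held a summit of at least 15, and 95 also held a moderate summit beyond 1000 bp from a gene. The matching shares over all 23810 spaces were not computed, so these counts do not say whether such sharing was common. The 49 pairs of neighbouring members in a space had summits a median of 1133 bp apart, from 477 to 18377 bp.

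A space with 3 members, between EDA34 and HAM3 (a GRAS-family gene of shoot meristem maintenance), was 3690 bp long and had peaks of 6.69, 4.80 and 3.30. The other, 2115 bp between AT5G62350 and AT5G62360, had peaks of 13.5, 4.06 and 3.57. HAM3 was also the only gene with 3 members in reach, since besides the peaks of 4.80 and 3.30 one of 14.2 lay on its other side. In spaces with 2, the strongest members were at AT5G54580 (14.5), at PIP3, an aquaporin gene (14.0), and at AT5G66740 (12.9).

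Through these spaces the members reached 1425 of 27444 nuclear protein-coding genes (5.19%). With co-10 summits under the same rule it was 34 genes (0.124%), and 1 gene was in both sets. A single member was in reach of 1372 genes, 2 of 52 genes and 3 of 1. Reached genes had a median length of 2243 bp, against 2078 bp over all. A filtered summit inside the gene was found in 133 of the 1425 (9.33%), against 1174 of all genes (4.28%). A strong flank summit was also found at 14 of the 1425 (0.982%). Over all genes, 1.04% had a summit of at least 15 inside the gene or in its flanks. Apart from their moderate flank peaks, 1283 genes (90.0%) had no filtered summit in the gene or its flanks.

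Flowering genes were represented by FT and FUL, 2 of 26 listed (7.69%), near the 5.19% of all genes. That holds for moderate flank peaks only. Of the 26, 11 had a filtered summit of some kind in the gene or its flanks. A summit of at least 15 was found at 4. The shares over all protein-coding genes were 9.53% and 1.04%. FT, the florigen gene, had a peak on chromosome 1 from 24330966 to 24331533, with a fold enrichment of 10.5 from 43 fragments over 3.20 expected. Its summit lay 134 bp from the gene edge, on the side of lower coordinates, in a space of 7281 bp that FT alone reached, and it ranked 129th of 1083 in strength. The other moderate peaks on that side, at 1718 and 5076 bp, had fold enrichments of 4.48 and 5.15 and were outside the limit. The nearest co-10 peak was 54.8 kb away, against a median of 750 kb over all members. FUL, a MADS-box gene of the floral transition, shared a space of 663 bp with the receptor-like kinase gene RLK1. The summit there (6.49 from 28 fragments) lay 544 bp from FUL and 120 bp from RLK1.

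Clock genes had 6 of 28 with a member (21.4%, Wilson interval 10.2 to 39.5), against 5.19% of all genes. Their fold enrichments were 6.81 to 12.5 with a median of 9.24, against 5.69 over all members. RVE2, a MYB-like gene of the REVEILLE family, had the strongest, 12.5 from 60 fragments over 3.88, with the summit 140 bp from the gene on chromosome 5 from 14752895 to 14753548. RVE5, of the same family, had a peak of 10.3 at 59 bp in a space of 213 bp that it shared with AT4G01270. Both lie in the upper part of the members, at ranks 52 and 139 of 1083.

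The other 4 peaks were at 1 coactivator gene and 3 genes of the evening-expressed part of the clock. ELF4 and LUX, which encode subunits of the evening complex that represses transcription at night, had peaks of 9.89 and 8.60. The ELF4 summit was 129 bp away in a space that no other gene reached, while the LUX summit lay in 481 bp between LUX (242 bp) and AT3G46630 (240 bp). TOC1, the evening pseudo-response regulator, had a peak of 6.81 from 29 fragments at 60 bp. LNK1, a coactivator of REVEILLE proteins, had 7.42 at 2 bp, in a space of 248 bp shared with AT5G64180. None of these 6 genes had another filtered summit inside it or a strong one in its flank. In the clock list, 20 genes had a filtered summit of some kind in the gene or its flanks, and 10 had one of at least 15, against 9.53% and 1.04% of all protein-coding genes. With 28 genes, chosen with these results known, the counts are a description.

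**Figure D4:**
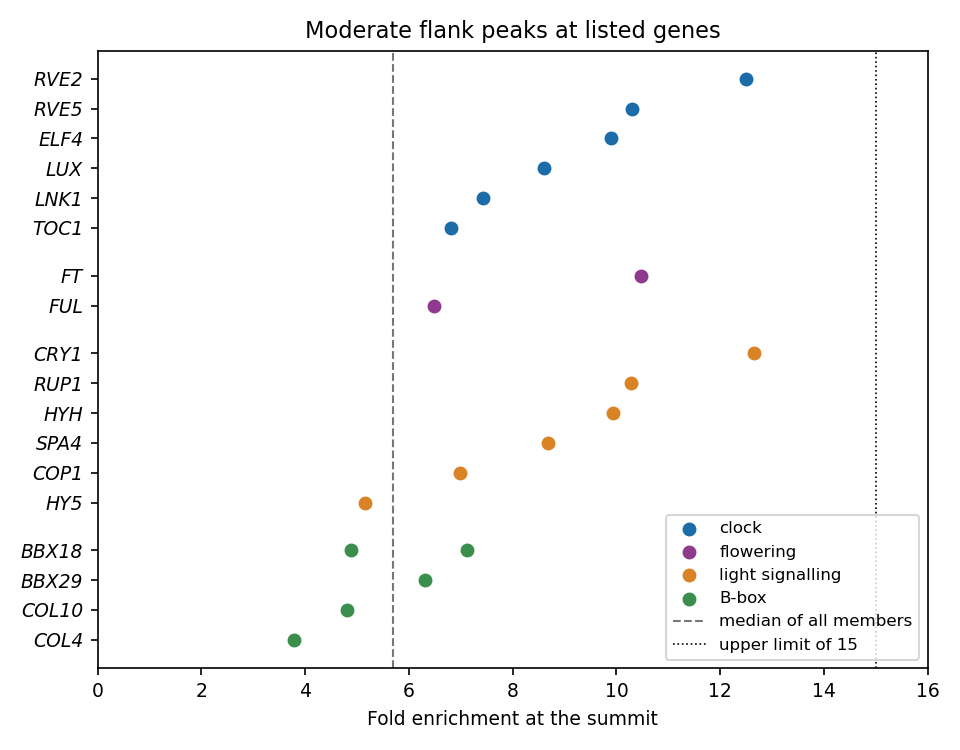
Fold enrichment at the summit (x) of each moderate flank peak within 1000 bp of a listed clock, flowering, light signalling or B-box gene (y, 18 genes, 19 peaks). CRY1 and RVE2 are the strongest at 12.6 and 12.5, the dashed line is the median of all members (5.69), and B-box genes lie between 3.79 and 7.12.

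Light signalling genes had 6 of 24 with a member (25%, interval 12 to 44.9), against 5.19% of all genes. Their median fold enrichment was 9.30. Of the 24, 15 had a filtered summit of some kind in the gene or its flanks, and 3 had one of at least 15. Over all genes these shares were 9.53% and 1.04%. CRY1, a blue-light receptor gene, had a 1356 bp wide peak of 12.6 from 48 fragments over 2.88, with the summit 6 bp from the gene in a space of 10135 bp. RUP1, a repressor of the UV-B receptor UVR8, had 10.3 at 637 bp and a weaker filtered peak of 3.34 inside the gene. The bZIP genes HYH and HY5, which promote development in the light, differed, with 9.93 at 92 bp and 5.16 at 23 bp. HY5 shared its space of 200 bp with OCP3. Genes of the complex that degrades CO in the dark included COP1 and SPA4. COP1, its ubiquitin ligase, had 6.99 at 13 bp in 359 bp shared with AGO6, and SPA4, a partner of COP1, had 8.67 at 325 bp in 832 bp shared with AT1G53080.

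Of the B-box genes, relatives of CO, 4 of 23 had a member (17.4%, interval 6.98 to 37.1), against 5.19% of all genes. The strongest member at each gene ran from 3.79 to 7.12, with a median of 5.56, against medians of 8.48 to 9.30 in the other lists. Peaks of 15 or more are outside the rule and are not in these values. A filtered summit of some kind was found at 13 of the 23, and one of at least 15 at 6. Over all protein-coding genes these shares were 9.53% and 1.04%. BBX18 had 2 on the same side, 7.12 at 75 bp and 4.89 at 817 bp. BBX29 had 6.31 at 614 bp in a 1310 bp interval, beside a strong flank peak of 26.6 that the limit on strength left out. COL10 had 4.81 at 104 bp and COL4 had 3.79 at 529 bp. Over the 4 lists, 19 distinct members stood at 18 genes, 15 of the 19 were above the median of all members, and 8 of the 19 had genes on both sides. No co-10 peak came nearer to any of them than 54.8 kb. Over all members the median gap to a co-10 peak was 750 kb, so this sets the 19 apart in no way. The lists were chosen with results of these data known, so their counts are no independent evidence of enrichment.

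Kinds of gene were read from words in the gene table's symbols and synonyms. Of the reached genes, 696 of 1425 carried a symbol beyond their locus identifier (48.8%), against 37.8% of all genes, and among named genes 6.71% were reached, which is the level to read kinds against. UDP-glycosyltransferases, which attach sugars to small molecules, had 13 of 73 reached (17.8%), and photosynthesis and chlorophyll genes 17 of 99 (17.2%). Of 35 genes named for an F-box, 5 were reached (14.3%). Transporters, channels and aquaporins had 55 of 601 (9.15%), cytochrome P450 genes 21 of 241 (8.71%) and cell wall genes 18 of 215 (8.37%). Kinases and receptor-like proteins (7.90%), hormone genes (7.69%), transcription factor families (7.64%) and heat shock proteins and chaperonins (5.63%) were near the level of named genes. Longer flanks hold more bases, and these shares were not adjusted for that. The search words were revised after looking at the genes they matched near members. The shares are therefore descriptions and no evidence of enrichment.

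**Figure D5:**
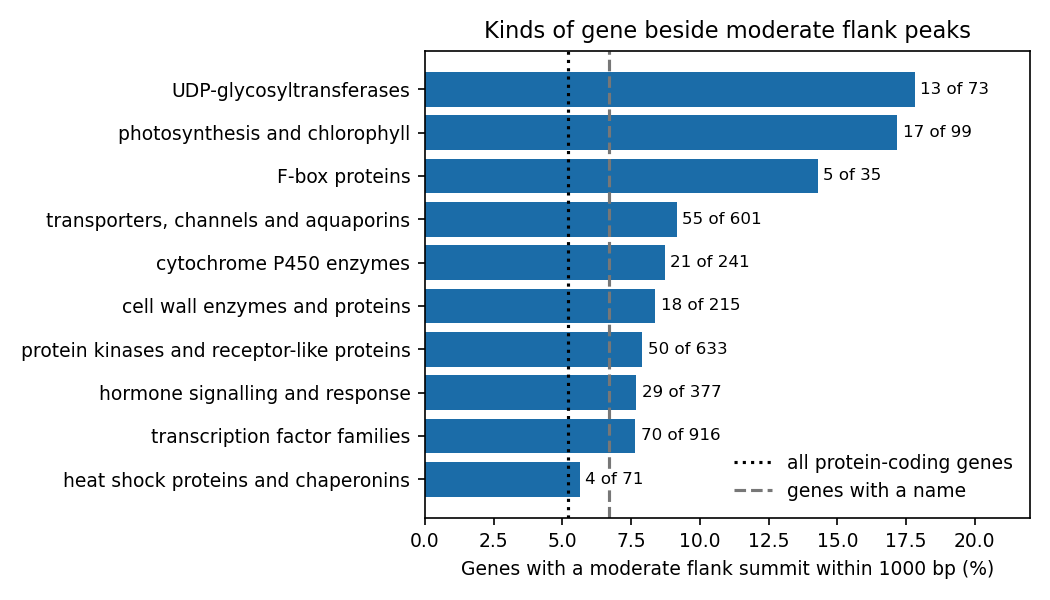
Share of protein-coding genes of each kind with a moderate flank summit within 1000 bp (x, percent, with the number of genes beside each bar). The dotted line is the share of all protein-coding genes (5.19%) and the dashed line that of genes with a name (6.71%). Beyond the dashed line lie 9 of the 10 kinds, whose search words were revised after looking at the genes matched near members.

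Photosynthesis genes had peaks of middling strength, a median of 6.07 over 15 peaks. ELIP2, an early light-induced protein of photoprotection, had the highest at 9.27, followed by LHCB2.3 of the light-harvesting antenna (8.48), the chlorophyllase gene CLH1 (8.24) and NPQ4, which encodes the PsbS protein of energy dissipation (7.59). RBCS2B and RBCS1B, near-identical Rubisco small subunit copies whose reads are hard to place, lay on the 2 sides of 1 peak of 6.97. LHCB5 had 6.96. Glycosyltransferase peaks were strongest at UGT71B1 (9.30) and IAGLU (8.64), and the neighbours UGT84A3 and UGT84A1, which glucosylate phenylpropanoid acids, had peaks of 7.16 and 5.71.

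Tandem families recurred among the cytochrome P450 genes. CYP71B20 had 14.7, CYP71B23 had 11.4, and a further peak of 9.30 lay between CYP71B22 and CYP71B23. CYP706A6 and CYP706A7 shared 1 of 10.4. CYP707A2, which degrades abscisic acid, had peaks of 9.62 and 8.54. Among F-box genes, EBF1 of ethylene signalling had 8.73 and the auxin receptor gene AFB5 had 5.09. In the hormone group, AT2G21210 (SAUR6) had 14.5 and the response regulator gene ARR9 of cytokinin signalling 8.39. Of transporters, ANT1 had 14.2, AMT1;2 had 14.1 and SULTR3;1, named for sulfate transport, had 13.2. XTH6, a xyloglucan-modifying cell wall gene, had 10.9.

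Transcription factor genes included the cold-response regulators CBF1 and CBF3 and their relative CBF4. These 3 were singled out after their values were seen. CBF1 had 10.7 at 564 bp and 11.7 at 585 bp, on opposite sides of the gene, and a stronger filtered peak of 15.1 inside it. CBF3 (listed as DREB1A) had 7.61 at 107 bp and 14.6 inside. CBF4 had 14.2 at 232 bp on one side and a weaker peak at 214 bp on the other. CBF2, in the same cluster as CBF1 and CBF3, had a strong flank peak of 23.1, which is no member. MYB12, a regulator of flavonol synthesis, had 11.0.

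Annotated non-coding genes held 64 of the 1083 summits (5.91%, interval 4.65 to 7.48), pseudogenes included, against 6.65% of flank bases. Long non-coding RNA genes held 45 (4.16%, interval 3.12 to 5.51), against 2.15% of flank bases. Shares were similar among moderate peaks farther than 1000 bp from genes (33, or 4.67%) and strong flank peaks (7, or 5.22%). The 45 members in such genes had a median fold enrichment of 6.21. The strongest was in AT3G02995 beside SWEET2, a sugar transporter gene (12.2). Genes of the plain pseudogene class held 4 (0.369%), against 1.71% of flank bases, and among moderate peaks farther than 1000 bp from genes 160 of 707 (22.6%). Shares of bases were computed for flanks only. The shares among peaks farther than 1000 bp from genes, for pseudogenes and long non-coding RNA genes, therefore have no background beside them. A further 5 lay in transcribed pseudogenes (0.462%, against 1.37% of flank bases). The CBF1 peak of 10.7 lay in AT4G03125, annotated as a miscellaneous RNA gene.

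Along the genome, chromosomes 1 to 5 had 289, 174, 213, 194 and 213 members. Per 1000 protein-coding genes this is 40.4, 40.3, 39.0, 46.4 and 33.6, highest on chromosome 4 and lowest on chromosome 5. As a share of each chromosome's filtered peaks, members were 40.2% on chromosome 4 and 30.3% on chromosome 5. Median fold enrichment per chromosome ran from 5.36 to 5.90 and median width from 467.5 to 488 bp, so neither strength nor width set a chromosome apart.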

How the data were processed

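ChIP-seq peaks of 8 samples in 4 groups of 2 were analysed as the authors' 3 deposited lists. Peak names say that replicates were pooled, and per the submitters' processing notes Bowtie, MACS2, FastQC and deepTools and the build TAIR10 were used, with versions and thresholds not given in the sources used here. Fold enrichment, the deposited ratio of signal to local background, the −log10 p-value and q-value, and the summit offset are the authors' values. The depth per sample is unknown. Peaks were placed against 27444 nuclear protein-coding genes of the RefSeq table of assembly TAIR10.1, with Python 3.11.15, pandas 2.3.3 and scipy 1.17.1. The fit of the table was checked by moving the summits: 38.2% lay inside genes at no shift, against 59.1% and 58.7% at 5000 bp to either side, and 37.9% against 21.6% and 21.3% lay in flanks.

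Pileup n and background b were recovered from fold = (n + 1) / (b + 1) and the Poisson probability of a count above n, a formula assumed for MACS2, trying n up to 4999. Placement was tested on simulated summits inside genes, past gene ends and farther away, among widely spaced genes that did not overlap. Summits before a gene start or with genes on both sides were not simulated. Recovery was tested on values made with the same assumed formula, so it does not check the formula itself. Shares carry Wilson 95% intervals and medians order-statistic 95% intervals, which describe the spread over peaks and cover no replicate error. Flank bases are all bases outside protein-coding genes and within 1000 bp of one, counted once. Members, lists and tests were chosen with earlier results of these data known. The named genes were FT, the extremes of strength, width and distance, listed genes with a member and the fullest spaces, with examples of gene kinds and the CBF genes added after seeing values. Kinds were to be read from descriptions, which the table lacks, so symbols and synonyms were used, with search words revised after looking at the genes they matched near members. Strand and motif results were not run, since neither strand nor sequence was used here.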

Additional observations from a re-analysis of the deposited data

How the results depend on the processing

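No paired analysis was possible because replicates were merged into 1 list per genotype, and for the same reason no replicate could be left out. Of 70 alternatives, 52 stayed within the 95% interval of the value or within 1.5 times of the count, and 18 moved. By construction, a flank of 500 bp gave a median distance of 144.5 bp, genes on both sides for 21.3% and 891 reached genes, and a flank of 2000 bp gave 465 bp, 53.1% and 2168 genes. A fold enrichment below 10 gave a median of 5.19 and a median width of 448 bp. A −log10 q of at least 5 gave 6.20 and 499 bp, and requiring a −log10 q of 10 or more kept 556 peaks at 752 genes, with medians of 7.96 and 563 bp. Flowering genes with a member numbered 1 when only the nearest gene counted, 1 with a flank of 500 bp and 9 with 2000 bp, and B-box genes 2 with 500 bp. Median distance was 262 bp without peaks near a co-10 peak and 248 bp without summits in non-coding genes, both within its interval. Members below a fold enrichment of 4 had a median pileup of 15 fragments, and the depth of the libraries is unknown. Alternatives on gene starts and motifs were not run.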
